A study of Mus musculus with 12 samples.

Results

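The genes described here build and guard the cilium, the hair-like organelle on which olfactory sensory neurons hold their odorant receptors. They were chosen by symbol from the gene table of mouse olfactory mucosa: every gene whose symbol is Ift, Bbs, Tctn, Nphp or B9d followed by a number, and Mks1, Cc2d2a, Cep290, Arl13b, Arl6, Tmem67, Tmem216 and Tmem231. This rule found 40 of the 44930 genes. Of these, 37 are annotated as protein-coding, Tctn2 is annotated as a processed transcript, and B9d1os and Ift88os are transcripts on the strand opposite to B9d1 and Ift88 that share the symbol's start. The values were high enough to be tested for 39 of the 40, all except B9d1os.

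The samples were olfactory mucosae of 12 males at postnatal day 30, of strain 129S6;C57BL/6J. Wildtype was the label of 6 of them, and the other 6 carried ΔeB, a deletion of 1155 bp on chromosome 7 (102847692 to 102848846, read as GRCm38) that takes out the element eB, which the series describes as a class I odorant receptor enhancer. The labels do not say whether the deletion is on both chromosomes, and gene counts cannot check it, since 0 annotated genes overlap the interval. Ribosomal RNA had been removed and the total RNA was sequenced with a stranded kit. The mucosa is a whole tissue: it holds sensory neurons, whose sensory cilia do not beat, beside respiratory cells with motile cilia, supporting cells, glands and stem cells.

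Intraflagellar transport moves cargo along the ciliary microtubules. The IFT-B complex travels with kinesin-2 towards the tip and the IFT-A complex with dynein-2 back to the base. The BBSome, recruited to membranes by the GTPase Arl6, rides on these trains and carries membrane proteins out of the cilium. At the base, the MKS and NPHP modules of the transition zone form a gate that limits what enters and leaves. Mutations in these genes cause human ciliopathies, and in mice that lack BBS proteins olfactory cilia are shortened and odour responses are impaired.

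The libraries held 13152662 to 23059835 reads on genes, and the 40 genes together took between 0.2209% (wildtype 2) and 0.2744% (eB deletion 2) of them. Markers of the labelled tissue were present in every animal: the mature neuron marker Omp stood at 57414 to 70076 normalized counts, the supporting cell enzyme Cyp2g1 at 47907 to 64650 and Foxj1, the regulator of motile cilia, at 2018 to 2610. A few libraries stood apart. Gm10800, a predicted gene, took 11.02% of the reads of wildtype 2 and 2.38% of eB deletion 4, against 0.55% in eB deletion 1, 0.33% in wildtype 5 and at most 0.0051% in the other 8. Wildtype 2 was also the shallowest library, and across all genes tested its deviation from its group went with that of eB deletion 4 (r = 0.44). Values without some or all of these libraries stand beside the results on Ift46, Ift27, Ift43, Arl6 and the pairs of genes.

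Ciliary genes are known targets of RFX transcription factors, which bind the X-box motif. The window from 250 bases before to 50 bases after the gene start was therefore searched in the RefSeq promoter table (GRCm38.p6), which holds 33 of the 40 genes in 38 promoters. Ift122, Ift80, Ift81, Ift88os and Tmem67 are among those with no entry. A 14-base X-box, spelled as GTTNCC and GGNAAC with 2 free bases between them and searched on both strands, was found in 3 of the 33 genes (9.09%), against 143 of all 27025 genes of the table (0.529%). Bbs7 encodes a BBSome subunit, and Mks1 and Tctn1 encode proteins of the transition zone. Other spacings were not searched, and Ift57 and Tctn3 are among genes that hold both arms with a single free base between them. Distances below count from the RefSeq start. For Bbs7, GENCODE M21 places the gene start at 36613477, between the RefSeq start and the match. The matches of Bbs7, Mks1 and Tctn1, shown because they are the complete ones at the searched spacing, read as follows, each 5′ to 3′ on the strand of its gene.
Bbs7, chr3:36613497-36613510, minus strand, 121 bases before the gene start: GTTGCCTTGGAAAC
Mks1, chr11:87853191-87853204, plus strand, 24 bases before the gene start: GTTGCCAGGGGAAC
Tctn1, chr5:122264411-122264424, minus strand, 36 bases after the gene start: GTTGCCCGGGCAAC

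The shorter motif GTTGCC, which is contained in all 3 of these sites, was found on either strand in 18 of the 33 genes (54.5%) and in 14.1% of all genes of the table. By role, it was in 7 of 10 MKS module genes with a promoter entry (Mks1, B9d1, B9d2, Tctn1, Tctn2, Tctn3 and Tmem231), in Ift57 and Ift172 of 3 peripheral IFT-B genes, in Ift140 of 2 IFT-A genes, and in Nphp4 and Arl13b. It was in Bbs1, Bbs5 and Bbs7 of 7 BBSome genes, in Ift27 and Ift88 of 6 IFT-B core genes, and in neither chaperonin gene. The windows of B9d1 and B9d1os overlap and hold the same match. The related spelling GTTACC was in 7 of the 33 genes (21.2%) and in 8.16% of all genes. These are letter matches, not measured binding, and no binding data were analysed. The 250 bases before the RefSeq start of Bbs7, Mks1 and Tmem231 are printed with the match in capitals. Bbs7 and Mks1 show the complete match and Tmem231 the shorter motif. The window of Tmem231 holds 2 matches of the shorter motif, and the match after the start is not printed. GENCODE M21 places the gene starts of Bbs7 (36613477) and Tmem231 (111933881) inside the printed stretches, so distances depend on the annotation. Tmem231 and Mks1 also had the highest Pearson's r with the motile cilia markers over all 12 animals, though not by every measure, as described further on. The genes of lowest r, B9d2 (-0.217) and Ift57 (-0.070), hold GTTGCC as well, and Bbs7 and Tctn1 had r of 0.207 and 0.257. A relation between motif and r was not tested.
Bbs7, chr3:36613390-36613639, minus strand: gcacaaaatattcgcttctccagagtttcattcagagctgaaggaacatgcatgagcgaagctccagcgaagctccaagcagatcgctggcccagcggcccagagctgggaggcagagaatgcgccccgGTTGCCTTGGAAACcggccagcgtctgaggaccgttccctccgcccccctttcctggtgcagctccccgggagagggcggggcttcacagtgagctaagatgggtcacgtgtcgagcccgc
Mks1, chr11:87852965-87853214, plus strand: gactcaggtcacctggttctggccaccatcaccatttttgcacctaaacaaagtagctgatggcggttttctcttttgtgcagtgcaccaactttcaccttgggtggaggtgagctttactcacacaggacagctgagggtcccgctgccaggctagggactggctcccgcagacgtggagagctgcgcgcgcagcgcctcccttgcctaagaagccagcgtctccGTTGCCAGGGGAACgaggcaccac
Tmem231, chr8:111933814-111934063, minus strand: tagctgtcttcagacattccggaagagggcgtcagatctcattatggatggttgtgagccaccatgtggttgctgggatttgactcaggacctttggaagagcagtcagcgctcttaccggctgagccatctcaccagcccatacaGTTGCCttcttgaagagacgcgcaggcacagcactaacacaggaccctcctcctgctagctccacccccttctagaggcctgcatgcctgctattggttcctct

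The tested genes were expressed well above the typical gene of the tissue. Their median level was 229 normalized counts per kb of exon, against 65.4 per kb over all 19100 genes tested. Arl6, the GTPase that brings the BBSome to membranes, had the highest level, at 784 ± 53.3 per kb in wildtype and 796 ± 36.9 per kb in the deletion (SD, n = 6 each), at the 95.5th percentile of all genes tested. Ift74, a subunit of the IFT-B core that binds tubulin together with Ift81, followed at 756 ± 55.4 and 747 ± 52.3 per kb, so that both genes overlapped within their spread. Ift43 of IFT-A (636 per kb over all animals), Ift20 of peripheral IFT-B (522 per kb) and Bbs2 of the BBSome (483 per kb) came next. The order rests on exon length: without division by length, 1 of the 5 highest genes stayed among the 5 highest.

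By median level, the transport genes of this set stood above the MKS module of the gate, though single genes overlapped. The IFT-B core ran from 136 to 751 per kb and the MKS module from 53.2 to 376 per kb. The 4 IFT-A subunits whose symbols fall outside the rule had a median of 135 per kb, below that of the MKS module. The median level was 356 per kb for the 7 IFT-B core genes, 342 per kb for the 4 peripheral IFT-B genes, 298 per kb for the 7 BBSome genes with Arl6 and 229 per kb for the 3 IFT-A genes, but 161 per kb for the 11 MKS module genes. B9d1, a B9 domain protein of the transition zone, was the highest of the MKS module at 376 per kb. Tctn2 at 59.3 per kb and Tctn1 at 53.2 per kb, both tectonics, were the lowest of that module. Nphp4, of the NPHP module, stood at 61.5 per kb. The chaperonin-like genes Bbs10 and Bbs12, which help to assemble the BBSome, stood at 100.3 and 88.9 per kb. Both opposite-strand transcripts were near the bottom, Ift88os at 10.3 per kb and B9d1os at 3.71 to 14.1 normalized counts in wildtype and 3.81 to 8.86 in the deletion.

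**Figure D1:**
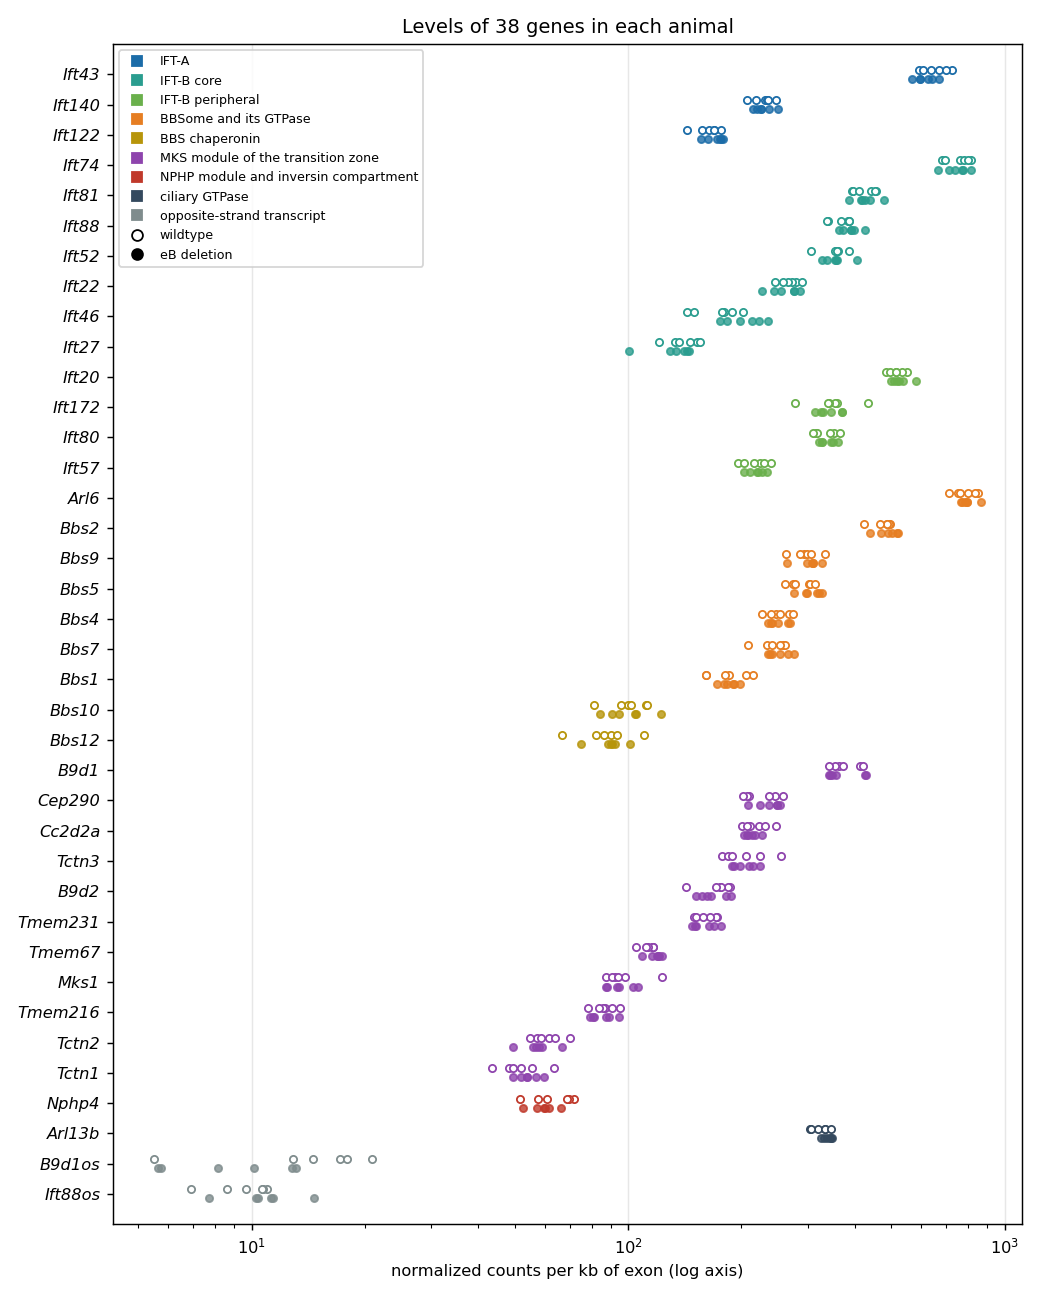
Normalized counts per kb of exon (log axis) of 38 of the genes in each animal, with open points for 6 wildtype and filled points for 6 eB deletion animals, coloured by role. Arl6 and Ift74 have the highest levels and both opposite-strand transcripts the lowest, and for every gene plotted the points of both groups overlap.

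Some exons are shared with neighbours. Hvcn1, on the opposite strand, covers 19.0% of the exon bases of Tctn1, 4930430F08Rik covers 7.6% of those of Cep290, and Gm15518 covers 7.9% of those of Ift57. The library kit keeps the strand, but the strand setting of the counting is not given in the sources used here, so that reads of such partners may not have been told apart. Ift88os shares 67 exon bases with Ift88.

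No ciliary gene of this set was called between eB deletion and wildtype. With limma on log2(value + 1) and Benjamini-Hochberg adjustment over all 19100 genes tested, 0 of the 39 genes passed an adjusted p of 0.05, the lowest adjusted p was 0.816, and 1 gene, Ift46, had an unadjusted p under 0.05. The background was alike: 0% of all genes passed the adjusted threshold and 5.64% had an unadjusted p under 0.05, which for 39 genes is a share near that of this set. The quasi-likelihood test of edgeR and DESeq2, both on recovered reads, also called 0 of the 39 at the adjusted threshold (background 0% and 0.0419%), and each gave 1 gene with an unadjusted p under 0.05 (background 5.86% and 4.93%). In the authors' deposited table, 0 of the 40 genes passed an adjusted p of 0.05 (background 0.0392%), 1 had a p under 0.05 (background 2.37%), and the lowest adjusted p was 0.837. The groups overlapped for all 39 genes, where 0.293% of all genes tested had groups that did not.

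The share of higher genes and the median change were close to those of genes at large. Of the 39 genes, 20 were higher and 19 lower in the deletion (51.7% of all genes tested were higher), and the median log2 fold change was 0.005 against 0.004 over all genes. The single estimates lay between -0.09 for Ift27 and 0.24 for Ift46. Over all 19100 genes tested they ran from -2.92 to 2.62, and the ends of so many genes cannot be set beside those of 39. The genes were measured precisely: the median standard error was 0.062 on the log2 scale against 0.098 over all genes. The median coefficient of variation between animals was 7.89% in wildtype and 6.99% in the deletion, against 12.2% and 10.8%. Genes at large had a lower median level (65.4 against 229 per kb) and were not matched to this set in level. The 95% intervals of 35 of the 39 genes lay within a 1.2-fold change in either direction and those of all 39 within 1.5-fold. Ift46, Ift27 and Ift88os were among those that reached beyond 1.2-fold. In bulk tissue, fewer cells of a type and less RNA per cell cannot be told apart.

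**Figure D2:**
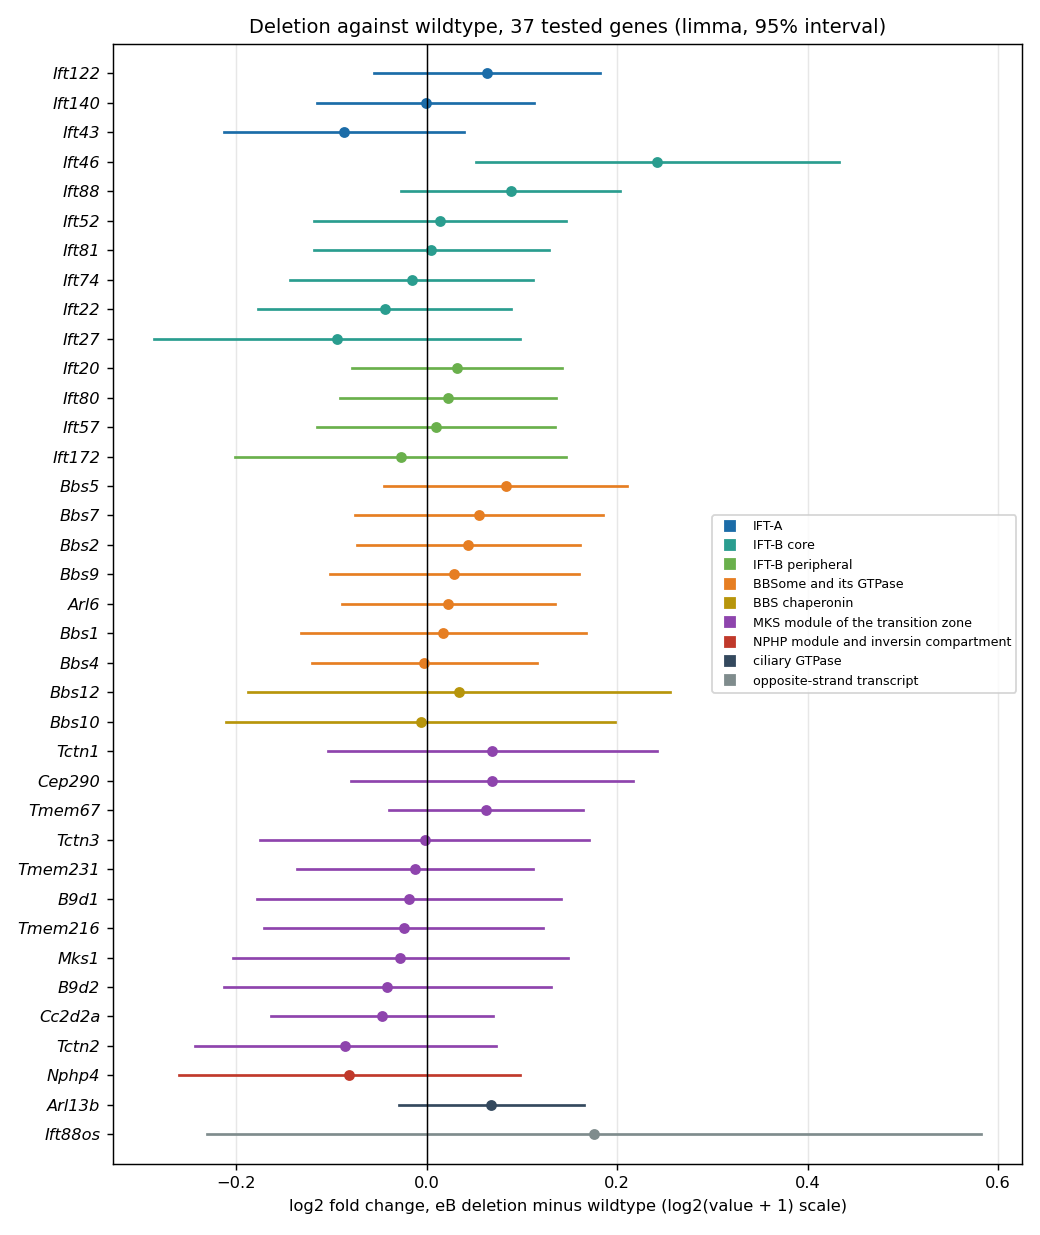
Log2 fold change of 37 of the tested genes, eB deletion minus wildtype on the log2(value + 1) scale, with points for the limma estimate and bars for its 95% interval, coloured by role. Among these, only the interval of Ift46 leaves out 0, and its adjusted p was 0.816.

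The IFT-B complex held the gene of smallest p. Ift46, a core subunit known in Chlamydomonas for carrying outer dynein arms, ranged from 920.6 through a median of 1146 to 1297 normalized counts in wildtype and from 1128 through 1320 to 1511 in the deletion. All 6 deletion animals lay above the wildtype mean of 1113, yet 4 wildtype animals lay within the range of the deletion group. The log2 fold change was 0.24 ± 0.09 (SE), with an unadjusted p of 0.0158 and an adjusted p of 0.816 (limma). The 2 lowest wildtype animals were wildtype 2 and wildtype 3. Without wildtype 2 and eB deletion 4, the libraries richest in Gm10800, the log2 fold change was 0.18 with an unadjusted p of 0.0743. The log2 fold change in the authors' deposited table, which is shrunken and counts wildtype over deletion, was -0.17 (p = 0.0137 by the authors).

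Other IFT-B core genes lay close to 0. Ift88, the subunit altered in the Oak Ridge polycystic kidney mouse, ranged from 1558 through 1743 to 1793 normalized counts in wildtype and from 1677 through 1810 to 1970 in the deletion, a log2 fold change of 0.09 ± 0.05 (adjusted p = 0.900, limma). In the deletion 5 of 6 animals lay above the wildtype mean, and the groups overlapped. Ift27, the small GTPase through which IFT-B takes part in BBSome exit, ranged from 345.5 through 404.3 to 445.4 in wildtype and from 287.7 through 393.6 to 416.4 in the deletion (log2 fold change -0.09 ± 0.09, adjusted p = 0.949, limma). A single animal, eB deletion 4, held its low end, and without that library the log2 fold change was -0.02 (unadjusted p = 0.820). Ift74 ranged from 1810 through 2048 to 2165 and from 1773 through 2008 to 2167, and the groups covered the same range. Of the 7 core genes, 4 were higher and 3 lower, with a median log2 fold change of 0.005.

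In the peripheral part of IFT-B, which links the train to kinesin-2, 3 genes were higher and 1 lower, with a median of 0.02. Ift20, a subunit also found at the Golgi, ranged from 740.2 through 786.9 to 840.6 normalized counts in wildtype and from 761.6 through 794.2 to 888.2 in the deletion. Its log2 fold change was 0.03 ± 0.05 (adjusted p = 0.973, limma), and both groups spanned nearly the same values. Ift57, a binding partner of Ift20 in the complex, ranged from 561.3 through 629.6 to 684.2 and from 581.4 through 632.4 to 668.3, so that the deletion animals lay inside the wildtype range. Ift172 varied most within the group, with an SD of 332 normalized counts around a wildtype mean of 2326.

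IFT-A showed no common direction. Ift43 ranged from 981.2 through 1079 to 1197 normalized counts in wildtype and from 937.3 through 1011 to 1103 in the deletion, where 5 of 6 animals lay below the wildtype mean. The log2 fold change was -0.09 ± 0.06 (adjusted p = 0.914, limma) and the groups overlapped. Without the 4 libraries in which Gm10800 took over 0.1% it was -0.17, with an unadjusted p of 0.0212 and an adjusted p of 0.804. Ift140, at -0.001 ± 0.05, was the gene closest to 0 in the set, and Ift122 was at 0.06 ± 0.06. Both are large WD-repeat subunits of the complex.

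Among the BBSome genes with Arl6, 6 of 7 were higher in the deletion and 0 were called (median log2 fold change 0.03). Arl6 ranged from 1491 through 1635 to 1782 normalized counts in wildtype and from 1605 through 1656 to 1818 in the deletion (log2 fold change 0.02 ± 0.05, adjusted p = 0.984, limma). The wildtype animals spread wider, and 5 of the deletion animals lay close together below eB deletion 2. Bbs5, a BBSome subunit that binds phosphoinositides, had the highest estimate of the group at 0.08 ± 0.06. Bbs4, the subunit whose loss was among the first shown to impair olfaction in mice, was at -0.002 ± 0.06, and its 95% interval ran from -0.12 to 0.12. The chaperonin-like Bbs10 ranged from 246.7 through 308.2 to 341.6 in wildtype and from 256.0 through 303.8 to 372.0 in the deletion, with full overlap and a log2 fold change of -0.01 ± 0.10.

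In the MKS module of the gate, 3 genes were higher and 8 lower, with a median log2 fold change of -0.02 and 0 calls. Tctn2 ranged from 457.6 through 500.3 to 582.0 normalized counts in wildtype and from 410.2 through 477.4 to 555.5 in the deletion, a log2 fold change of -0.09 ± 0.07 (adjusted p = 0.946, limma). Deletion animals lay below the wildtype mean in 5 of 6 cases, and the groups overlapped. B9d1 ranged from 545.6 through 587.2 to 669.5 and from 544.9 through 562.4 to 681.6, values that cover the same range. Tmem231, a membrane protein of the gate, ranged from 802.3 through 868.4 to 924.6 in wildtype and from 796.2 through 846.3 to 949.1 in the deletion. Mks1 ranged from 353.7 through 376.0 to 497.0 and from 352.2 through 379.9 to 430.6, with the top wildtype value set by wildtype 3 alone. Cep290, the long scaffold protein of the transition zone, and Tctn1 were the highest estimates of the module, both at 0.07.

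B9d2 is the gene of the set that shares chromosome 7 with the deletion, 77.2 Mb from it (25680780 to 25686558, plus strand). It ranged from 207.5 through 256.4 to 271.1 normalized counts in wildtype and from 220.8 through 238.1 to 273.2 in the deletion. The log2 fold change was -0.04 ± 0.08 (adjusted p = 0.979, limma), and the groups overlapped.

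Nphp4 of the NPHP module ranged from 311.9 through 391.8 to 432.9 normalized counts in wildtype and from 317.7 through 362.5 to 402.0 in the deletion. The deletion animals lay inside the wildtype range, and the log2 fold change was -0.08 ± 0.08 (adjusted p = 0.950, limma). Arl13b, the ciliary GTPase that marks the ciliary membrane, ranged from 1545 through 1659 to 1758 in wildtype and from 1655 through 1732 to 1773 in the deletion. All 6 deletion animals lay above the wildtype mean of 1646, with a log2 fold change of 0.07 ± 0.05 (adjusted p = 0.914, limma). The opposite-strand transcript Ift88os, at 13.9 to 22.2 in wildtype and 15.5 to 29.5 in the deletion, was too low for a close estimate (0.18 ± 0.19).

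Genes of the same pathways whose symbols fall outside the rule are described for comparison. Of 66 such genes tested, 47 were higher and 19 lower in the deletion. Their median log2 fold change was 0.03, and 0 were called. An unadjusted p under 0.05 was reached by 3 of them, all higher (2.83% of all genes tested were higher at that p): the IFT-B subunit Traf3ip1 (0.13 ± 0.05), the ciliary phosphoinositide phosphatase Inpp5e (0.16 ± 0.07) and the transition zone protein Cspp1 (0.13 ± 0.06). Their adjusted p-values were at least 0.850 (limma). Traf3ip1 ranged from 1892 through 2069 to 2268 normalized counts in wildtype and from 2079 through 2289 to 2380 in the deletion. Inpp5e ranged from 446.5 through 510.6 to 548.2 and from 514.1 through 555.4 to 623.6, and Cspp1 from 1859 through 2113 to 2244 and from 2052 through 2268 to 2451. In all 3 the upper wildtype animals overlapped the lower deletion animals.

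The highest levels per kb of exon among these partners were those of Dynlrb1 and Rp2. The dynein light chain Dynlrb1 stood at 1292 and Rp2, the GTPase-activating protein of Arl3, at 1221. The subunit Wdr35 led the IFT-A partners at 367 per kb, Ttc30b the IFT-B partners at 728 per kb, Rab3ip the BBS partners at 359 per kb and Tmem107 the gate partners at 459 per kb. Among transcription factors of ciliary genes, Foxj1 stood at 888 per kb, with a log2 fold change of -0.002 ± 0.06.

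Because these genes serve both sensory and motile cilia, each was compared across the 12 animals with the mean log2 level of 20 mature sensory neuron markers and of 31 motile cilia markers. With the neuron markers, 34 of 39 genes had a positive r, with a median of 0.34 against 0.02 over the 19080 genes outside the list, of which 52% were positive. An unadjusted permutation p under 0.05 was found for 8 genes, all with positive r (3.97% of genes outside the list): Arl6, Ift80, Bbs7, Cep290, Bbs2, Ift88, Ift27 and Ift81. Wildtype 6 and eB deletion 2, the animals farthest from the median of the neuron markers, carried much of several of these relations. Without them r fell from 0.721 to 0.276 for Bbs7, from 0.674 to 0.289 for Bbs2 and from 0.630 to 0.132 for Ift88. Cep290 then stood at 0.492, Ift81 at 0.429 and Ift27 at 0.582. With the motile cilia markers, 30 of 39 had a positive r, with a median of 0.24 against 0.03 over the 19069 genes outside that list, of which 53.6% were positive. Here 5 genes had an unadjusted p under 0.05, all positive (2.86% of genes outside the list): Tmem231, Mks1, Ift22, Ift43 and Bbs4. No gene was in both groups of names. The 39 genes share libraries and depth, so their r values are not independent of each other. Genes outside the lists were not matched to them in level.

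Arl6 followed the neuron markers most closely. Pearson's r was 0.889 (permutation p = 0.00015, 0.0117 after adjustment over the 78 relations of 39 genes with 2 marker lists, and 0.323 after adjustment over the 38200 relations of all genes tested, where 0 genes outside the list passed). Spearman's rho was 0.811 (permutation p = 0.0022, adjusted over the 78 relations 0.172). Wildtype 6 was lowest and eB deletion 2 highest in both Arl6 and the markers, and r was 0.738 without these 2 animals. Each of the pair carried the adjusted call, since the p adjusted over the 78 relations was 0.105 without wildtype 6 and 0.0874 without eB deletion 2. Among genes outside the list, 0.0577% had an r as high as that of Arl6.

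Base composition moved with this relation. After the trend with the GC content of transcripts had been taken off each library, r of Arl6 with the neuron markers was 0.59 (permutation p = 0.0436, adjusted over the 78 relations 0.38). With the 4 libraries richest in Gm10800 (each over 0.1%) left out, r was 0.91, with an adjusted p of 0.192 over 8 animals. Ift80, a peripheral IFT-B subunit that is mutated in a human skeletal ciliopathy, had r = 0.784 and rho = 0.72 with the neuron markers (permutation p = 0.00303 and 0.011, adjusted over the 78 relations 0.118 and 0.204). Its r was 0.648 without wildtype 6 and eB deletion 2. After the same removal of the GC trend, r of Ift80 was 0.51 (permutation p = 0.0901, adjusted over the 78 relations 0.453). With the motile cilia markers Arl6 had r = -0.041. The difference between the relations of Arl6 with both lists was not tested.

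The gate genes Tmem231 and Mks1, whose promoters are printed above, had the highest Pearson's r with the motile cilia markers over the 12 animals. Tmem231 had r = 0.695 and rho = 0.769 (permutation p = 0.0113 and 0.00449, adjusted over the 78 relations 0.217 and 0.175), and r was 0.833 without eB deletion 3 and eB deletion 6, the animals farthest from the median of the markers. For Mks1, r was 0.624 and rho 0.594 (permutation p = 0.031 and 0.0457, adjusted over the 78 relations 0.274 and 0.313), and 0.651 without the same animals. By Spearman's rho Mks1 came after Ift22 (0.734, permutation p = 0.00908) and Ift43 (0.706, permutation p = 0.0131). Without eB deletion 3 and eB deletion 6, Ift172 (r = 0.823) and Ift140 (r = 0.816) also stood above Mks1, up from 0.426 and 0.383 over all animals, so that the order below Tmem231 depends on those animals. The lowest values were those of B9d2 (r = -0.217, permutation p = 0.497) and Ift57 (r = -0.070, permutation p = 0.829). None of the 78 relations with either list passed adjustment other than that of Arl6 by Pearson's r.

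**Figure D3:**
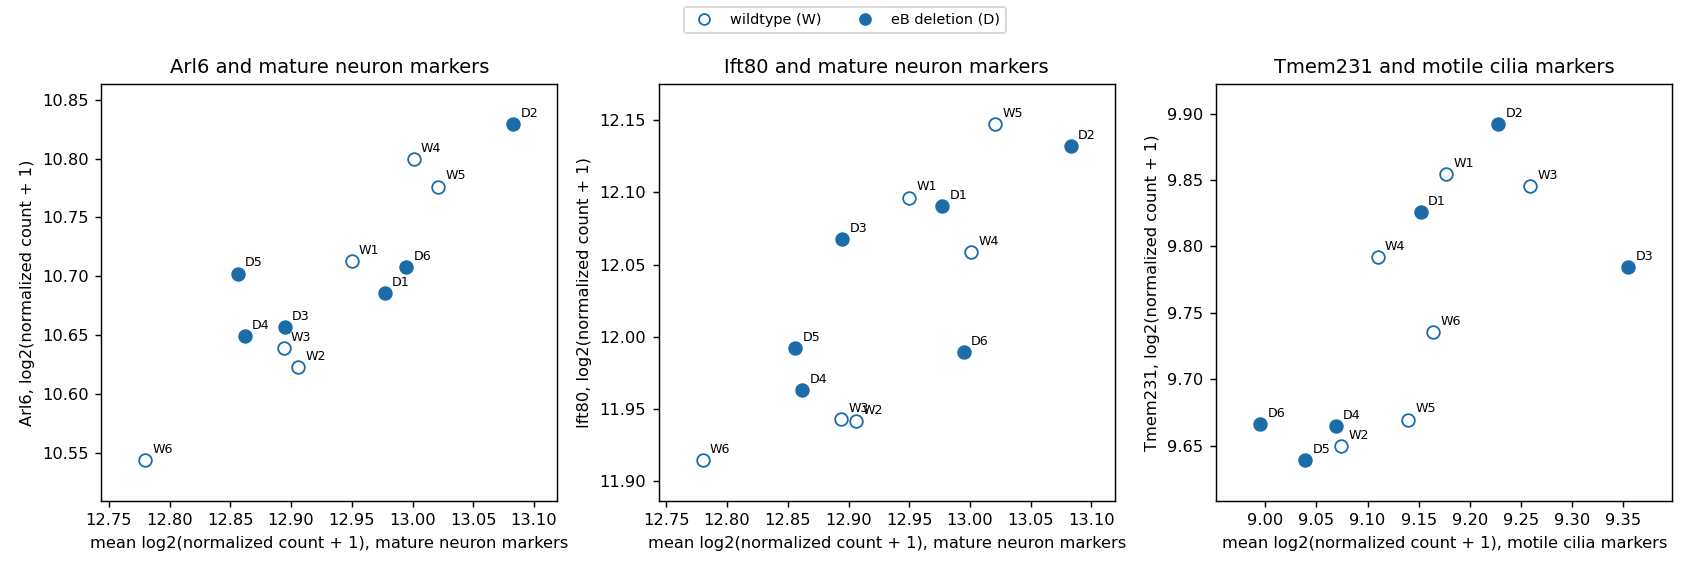
Log2 level of Arl6 and Ift80 against the mean log2 level of the mature neuron markers, and of Tmem231 against that of the motile cilia markers, with 1 point per animal (W wildtype, open, and D eB deletion, filled). Arl6 rises with the neuron markers from wildtype 6 at the lower left to eB deletion 2 at the upper right.

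Among themselves the genes varied together more than genes at large. Over the 741 pairs of the 39 genes, on deviations from group means in 12 animals, the median Pearson r was 0.20 against 0.01 over all pairs of genes tested. In 153 pairs (20.6%) r was above 0.5, against 8.7% of all pairs, and in 19 pairs (2.6%) it was below -0.5, against 7.7%. These shares are descriptions, since the pairs share animals, depth and genes, and the genes at large were not matched to this set in level. The median was 0.10 without wildtype 2 and eB deletion 4 and 0.15 without the 4 libraries in which Gm10800 took over 0.1%. In the latter setting 25.9% of pairs were above 0.5 and 7.8% below -0.5. The shares of all pairs were computed over 12 animals only and cannot be set beside these. The median r was 0.23 in 110 pairs of the same role and 0.19 in 631 pairs of different roles, a difference that was not tested. By role it was 0.59 over the 3 pairs of IFT-A, 0.28 over 21 pairs of the IFT-B core, 0.24 over 21 pairs of the BBSome with Arl6, 0.22 over 6 pairs of peripheral IFT-B and 0.16 over 55 pairs of the MKS module.

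Among the closest pairs were Ift46 with Ift57 (r = 0.89), both of IFT-B, Cep290 with Arl13b (r = 0.89), and the IFT-B gene Ift22 with the BBSome gene Bbs2 (r = 0.88). Ift46 was highest in eB deletion 5 (1511.0 normalized counts) and Ift57 as well within that group (668.3), and both were lowest of all in wildtype 2 (920.6 and 561.3). Opposite to them ran Nphp4, an NPHP module gene, which was highest in wildtype 2 (432.9) and near its lowest in eB deletion 5 (317.7). Its r was -0.93 with Ift57 and -0.78 with Ift46, and without wildtype 2 these were -0.93 and -0.73, with 0.84 for Ift46 with Ift57. Nphp4 had the lowest mean r with the other genes, -0.21. At the other end Ift88, with a mean r of 0.37, and Ift80, with 0.35, varied most like the rest. Nphp4 also had the highest GC content of the set, at 59.3%.

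Pairs of like GC content were the more correlated. GC content of the longest transcript ran from 38.7% for Cep290 to 59.3% for Nphp4, with a median of 48.7%. The median r was 0.33 in the 171 pairs below that median and 0.25 in the 171 pairs above it, but 0.13 in the 361 pairs across it. Genes below the median include Cep290, Bbs5, Arl6, Ift80, Ift88, Ift74, Arl13b and Ift81, and genes above it include Ift140, Bbs1, Tctn3, Ift122, Ift172, Mks1 and Tctn1. Both sides mix transport, BBSome and gate genes. After the GC trend of each library had been taken off, the medians were 0.29, 0.21 and 0.18, and 0.23 over all pairs, with Ift46 and Ift57 still at 0.89 and Cep290 and Arl13b at 0.73.

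**Figure D4:**
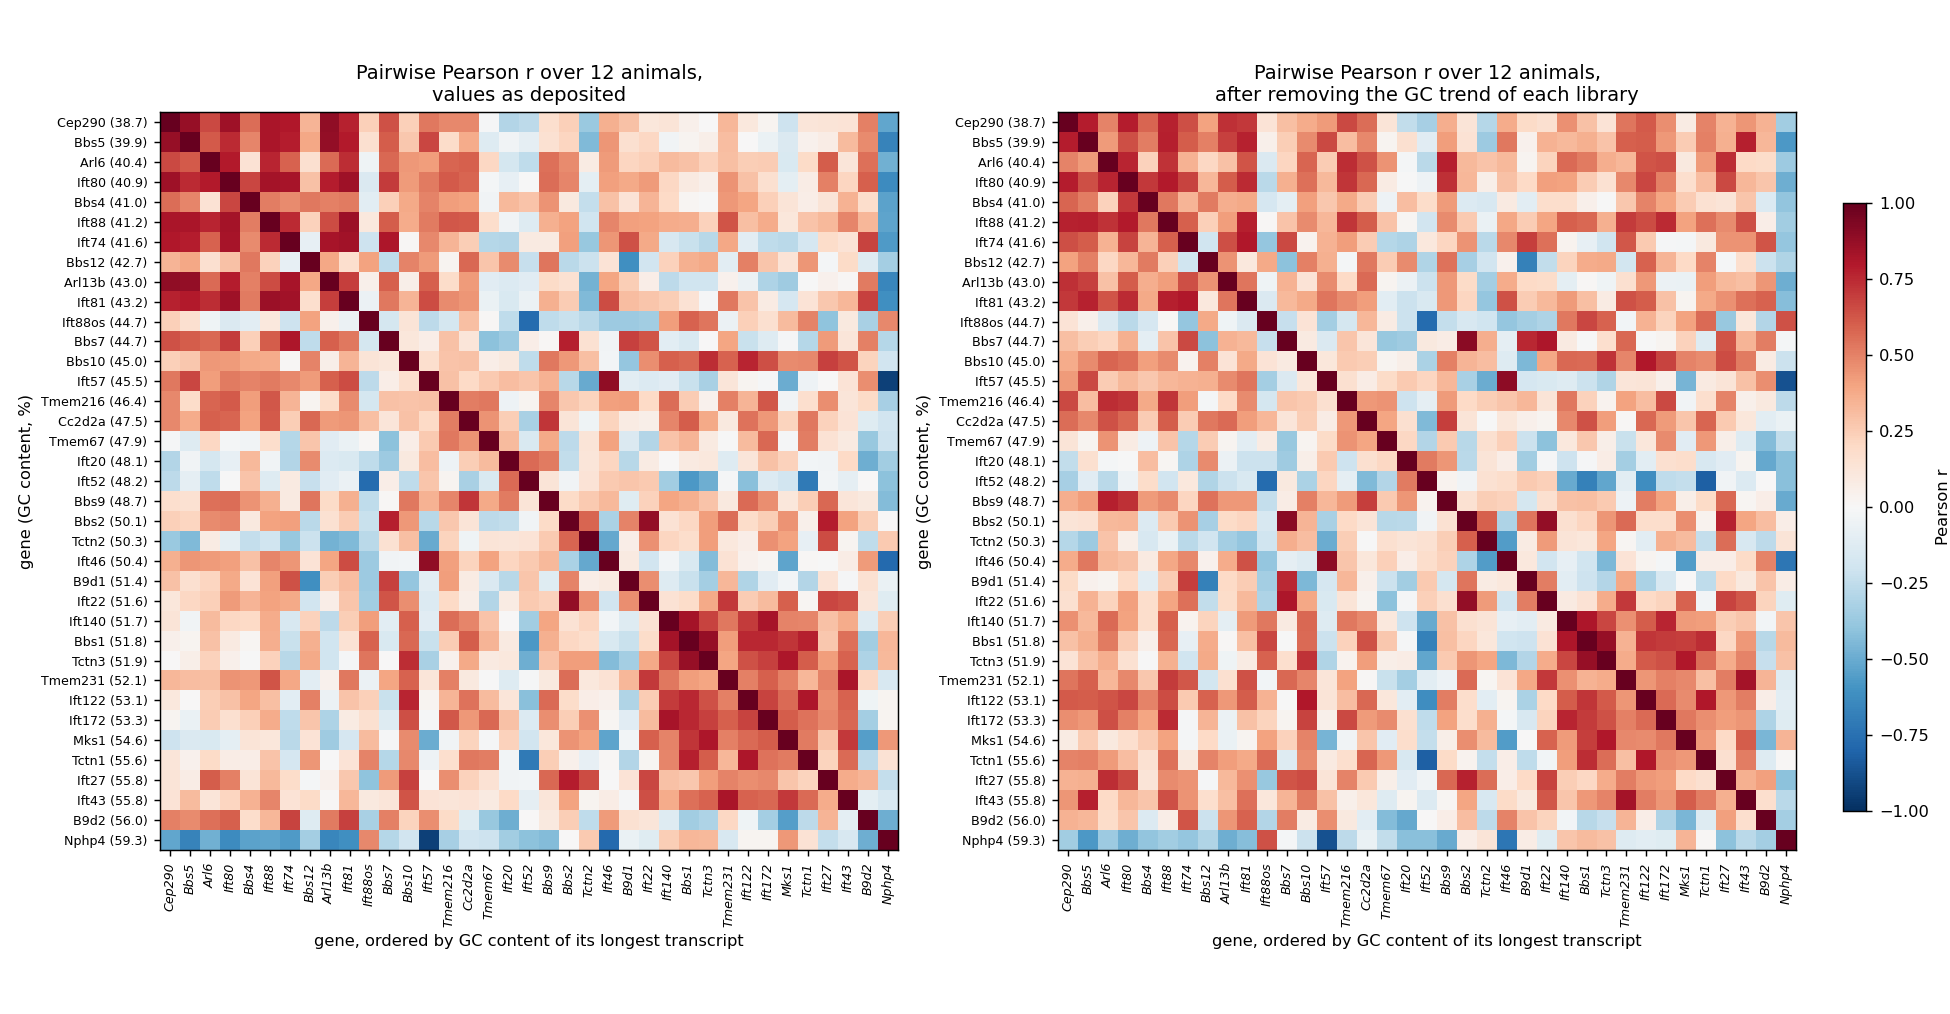
Pairwise Pearson r of 37 of the tested genes over 12 animals on deviations from group means, ordered by GC content of the longest transcript in percent, with values as deposited on the left and after removal of the GC trend of each library on the right. A block of low-GC genes around Cep290, Ift80 and Ift88 and a block of higher-GC genes around Bbs1 and Ift140 stand out, and Nphp4 runs against the first of them.

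The trend with GC content differed from library to library and took both signs within each group. Across the 39 genes, the deviation from the mean of all animals had an r with GC content of -0.63 in wildtype 5 and -0.40 in eB deletion 4, and of 0.49 in wildtype 3 and 0.43 in wildtype 6. Over all 19073 genes with a GC value the same r lay between -0.19 (eB deletion 4) and 0.20 (wildtype 6). These r are across genes, which are not independent replicates. The part of GC content in the correlations was not tested beyond the removal of this trend.

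**Figure D5:**
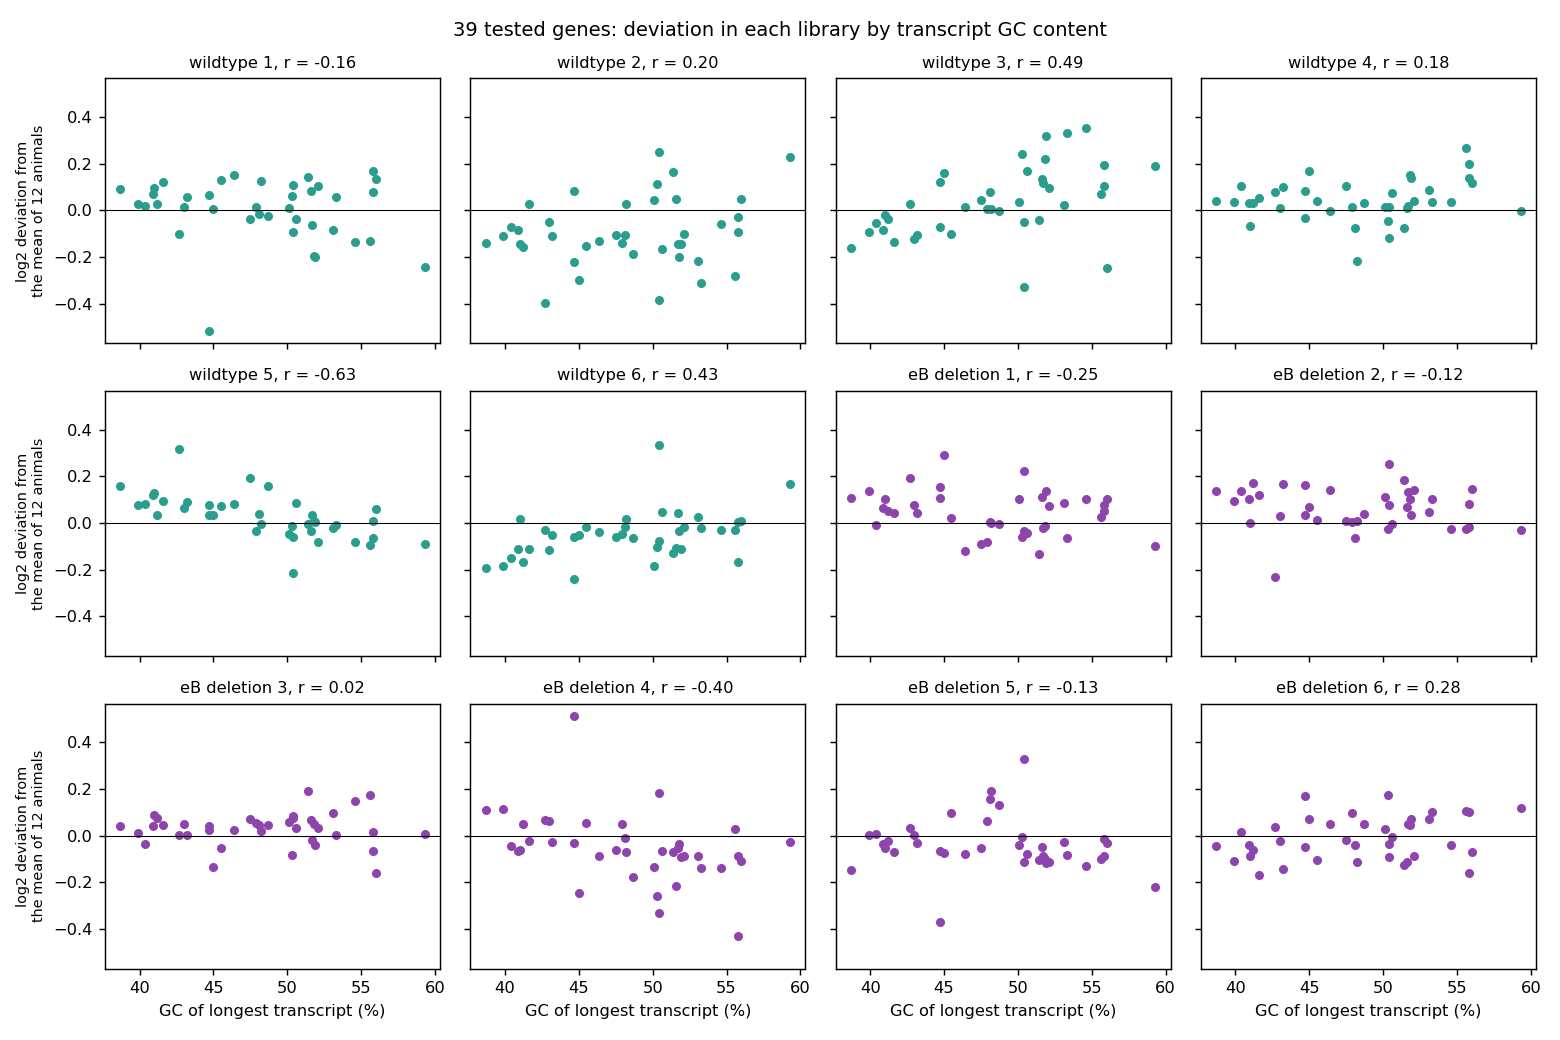
Deviation of the log2 level of each of the 39 genes from its mean over 12 animals against the GC content of its longest transcript in percent, in 1 panel per library with its Pearson r. The points fall with GC content in wildtype 5 and eB deletion 4 and rise in wildtype 3 and wildtype 6.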

How the data were processed

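Total RNA of olfactory mucosa from 6 wildtype and 6 eB deletion mice had been sequenced after ribosomal depletion, per the labels' protocols. The submitters' processing notes name STAR 2.6.0, DESeq2 and GRCm38.p6. For the counting, the sources used here give no tool, annotation or strand setting. Per gene and library the authors deposited a signal: normalized read counts, made with a single size factor for each library. In every library 100% of them were whole multiples of 1 read, within a tolerance of 0.001 of the value. For large values that tolerance lets any number pass, so the check rests on the smaller values. Rounding gave back whole reads. The authors' deposited table also holds a shrunken log2 fold change (wildtype over deletion) with its standard error, a test score, and a p-value with its adjusted p-value.

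The main test was limma-trend on log2(value + 1), run in R 4.3.3 with limma 3.58.1 on genes that reached 10 in at least 6 samples, without covariates, as deletion minus wildtype. This scale understates changes of low genes. As alternatives, edgeR 4.0.16 and DESeq2 1.42.0 were run on recovered reads. On simulated reads for this comparison, with 50 of 19100 genes changed at each fold, limma recovered 8% of those changed 1.2-fold and 64% of those changed 1.5-fold. The shares were 80% for a 2-fold and 96% for a 3-fold change, and 5 of 129 calls were false. Many calls at once loosen the adjusted threshold, and the data held 0 calls. For a lone changed gene of the same precision, the shares therefore overstate the recovery. The changed genes were drawn from all genes tested, whose median standard error was 0.098 on the log2 scale, against 0.062 for this set. Recovery among genes as precise as this set was not simulated. Correlations used two-sided permutation tests (100000 resamples; Python 3.11.15, scipy 1.17.1). Positions, exon lengths and transcript GC content came from GENCODE M21, matched for 44811 of 44930 genes, and promoters from RefSeq. Libraries of a group differed by a chi-square per degree of freedom of at least 14.7, so none was a copy of another in its group. Libraries of different groups were not compared in this way. The labels name separate samples without saying how mice were paired or housed. The p-values of the group tests set the difference against the variation between these animals, and permutation p-values come from shuffling the animals.

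The values of 2 genes of the set are not reported here; counts and medians over the set include them. The genes and lists were chosen with earlier results of these data known. Values by animal are given for the 3 tested genes of smallest p in each direction, the highest per kb in each role, and the 2 highest and 2 lowest in r with the motile cilia markers. Partners are named where the unadjusted p was under 0.05 or the level was highest in their list. Nphp4 was added after its values were seen.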

Additional observations from a re-analysis of the deposited data

Results flagged for a closer look

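In 4 of the 78 groups of 6 animals (39 genes in 2 genotypes), 1 animal stood apart from the other 5 by a gap larger than Dixon's 95% critical value of 0.625 of the range. Chance gives about 1 in 20 such groups, here 3.9. Ift27, the IFT-B small GTPase, was lowest in eB deletion 4 at 287.7 normalized counts, with the others at 370.7 to 416.4. Arl6 was highest in eB deletion 2 at 1818.2, with the others at 1604.7 to 1671.2. Mks1 was highest in wildtype 3 at 497.0, with the others at 353.7 to 397.9, and B9d2 was lowest in the same animal at 207.5, with the others at 248.3 to 271.1.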

How the results depend on the processing

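The count of called genes stayed at 0 under all 24 alternatives, and 17 to 25 genes were higher in the deletion. The median log2 fold change ranged from -0.016 to 0.024 and was of the other sign or 0 under 8 of them, so it carries no direction. The log2 fold change of Ift46 ranged from 0.177 to 0.288, and the count with an unadjusted p under 0.05 was 0 without the 2 libraries in which Gm10800 took over 1% of reads. Without the 4 in which it took over 0.1%, the gene with such a p was Ift43 (-0.166) and not Ift46. Ift27 ranged from -0.137 to -0.017, the latter without eB deletion 4. Genes called with the neuron markers over the 78 relations numbered 3 with upper quartile factors (Arl6, Ift80 and Bbs7), 0 without the same 4 libraries, 0 with the GC correction, and 0 to 2 when each animal was left out in turn. The median pairwise r was 0.13 with TMM factors, 0.14 with upper quartile factors, 0.1 and 0.15 without the same 2 and 4 libraries, and 0.14 to 0.26 when each animal was left out. Of the 5 highest genes per kb, 1 was among the highest 5 without division by length. The causes were not tested. With a replicate block, 0 genes were called, 1 had an unadjusted p under 0.05 and 20 were higher. Same-numbered animals had correlations of -0.12 to 0.16 in their deviations from group means. Animals of different number reached 0.44 (wildtype 2 with eB deletion 4), so such correlations cannot tell whether the numbers pair animals. The GC correction and the alternatives for pairs of genes were chosen after seeing the data. Depth limits mainly B9d1os and Ift88os.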
